A study of Mus musculus with 8 samples.

Results

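Livers hold resident macrophages, the Kupffer cells, and smaller numbers of other leukocytes, and 38 genes that mark these cells were read in *Agpat3* WT and *Agpat3* KO liver. The genes form 9 groups: Kupffer cell identity (5 genes), macrophage and monocyte (9), C1q chains (3), pan-leukocyte and myeloid signaling (6), MHC class II (4), T cell (3), cytotoxic and NK (3), B cell (3) and neutrophil (2). A probe belonged to a gene when its transcript identifier matched the gene's symbol in a mouse RefSeq table, and where a gene had more than 1 probe, the one with the highest mean over the 8 arrays was used. All 38 genes had a probe, among 22911 genes with a symbol, and 33 passed the filter on dim probes, among 14067. RNA came from livers of male C57BL/6 mice, 10 weeks old, 4 *Agpat3* WT and 4 *Agpat3* KO, with 1 array for each liver. In the KO the gene is lost in the whole animal, so hepatocytes, Kupffer cells and blood leukocytes all lack it. AGPAT3 is an acyltransferase of phospholipid synthesis with a preference for docosahexaenoic acid. The structure of the KO allele is not given in the sources used here.

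Kupffer cells line the liver sinusoids, where they take up bacteria, complement-coated particles, aged red blood cells and apoptotic cells from portal blood. They carry a set of scavenger and complement receptors that most other macrophages lack, share F4/80, the CSF1 receptor and C1q production with macrophages of other tissues, and are largely replaced from within the liver, while monocytes, neutrophils, T, B and NK cells enter from blood. In whole-liver RNA, fewer cells of a type and less RNA per cell cannot be told apart.

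*Agpat3* itself, the check of the labels, was at 5.65 to 5.88 in the WT livers and at -0.58 to 0.020 in the KO livers. These and all levels below are log2 signals after subtraction of each array's 75th percentile, listed in the order of replicates 1 to 4, and every change is the KO mean minus the WT mean on this log2 scale. Between 29888 and 31892 of 56605 probes were well above background on an array, and pairs of arrays correlated at 0.985 to 0.996. *Apoa1*, an apolipoprotein made by hepatocytes, lay between 8.16 and 8.53 on all arrays. The 8 arrays shared 1 slide and 1 scan, with WT in row 1 and KO in row 2, so that the row cannot be told apart from the genotype. The labels number the livers without saying more of their origin, and p-values measure the spread between these livers.

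1 of the 33 tested markers was called lower in KO liver and 0 were called higher, where a call required a change of more than 1.5-fold together with an adjusted p below 0.2 from limma. The called gene was *Marco*. Over all 14067 genes tested with 1 probe each, 0.754% were called lower and 1.01% higher (0.726% and 0.939% of all 29069 probes). *Marco* was also the only marker among the 33 whose KO and WT values did not overlap, against 9.72% of all genes (8.86% of all probes). At an unadjusted p under 0.05 from limma there were 2 markers, *Marco* and *Cx3cr1*, against 14.0% of all genes. The change was below zero for 29 markers and above zero for 4, with a median of -0.17, and 28 of the 33 differed by less than 0.5 in either direction. Over all genes the median was -0.032, and 58.0% were below zero. The markers are expressed in overlapping sets of cells, so their changes do not count as separate observations.

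**Figure D1:**
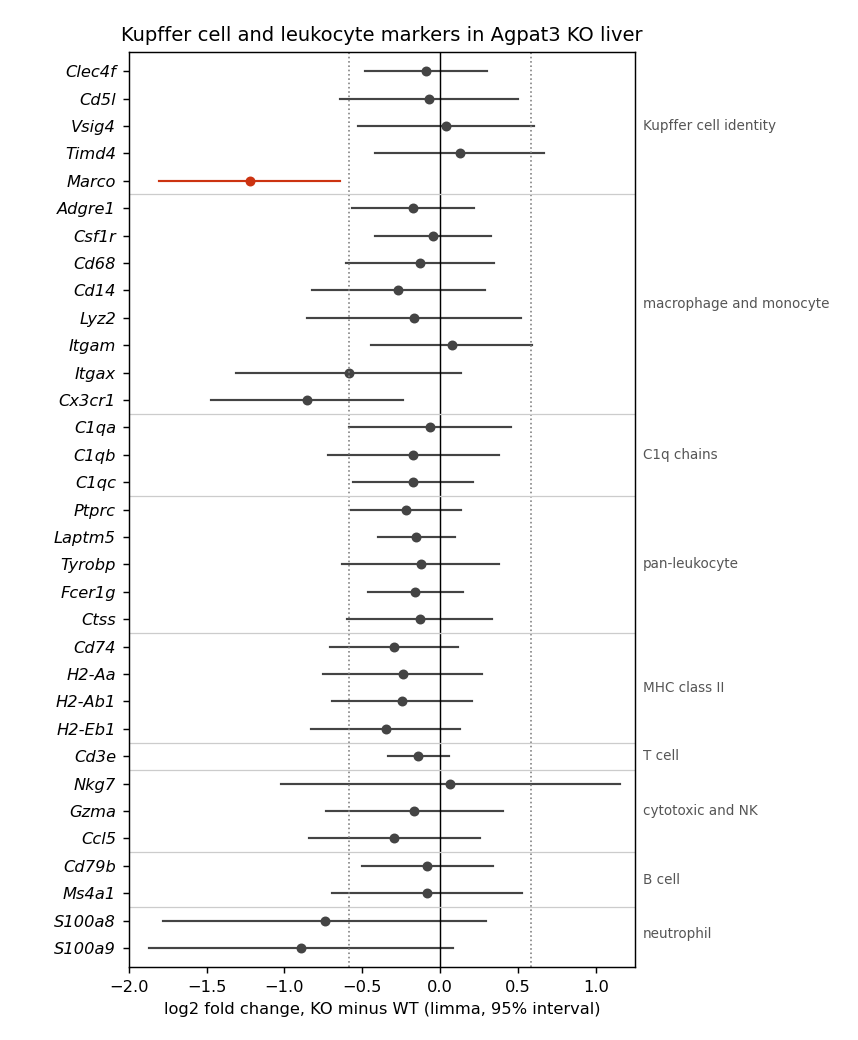
Change of each of the 33 tested markers in *Agpat3* KO liver (log2, KO minus WT, 4 livers each; points with 95% intervals from limma; dotted lines at 1.5-fold; genes by group). *Marco*, in red, at -1.22, is the marker called lower; 28 of the 33 points lie within 0.5 of zero.

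MARCO is a class A scavenger receptor that binds bacteria and particles, and in liver it is found on Kupffer cells. *Marco* had log2 signals of 2.49, 2.87, 3.52 and 3.20 in WT and 1.33, 1.77, 2.25 and 1.84 in KO. The highest KO liver, replicate 3, stayed below the lowest WT liver, replicate 1. The mean went from 3.02 ± 0.44 to 1.80 ± 0.38 (SD, n = 4 each), a change of -1.22 (standard error 0.25, 95% interval -1.80 to -0.64, adjusted p = 0.0983 from limma), which is 2.34-fold lower. The exact permutation test gave a two-sided p of 0.0286, the smallest that 4 livers against 4 allow. *Marco* had 1 probe, so no second probe could be set beside it. The call was lost without WT replicate 3 (change -1.06, limma adjusted p = 0.210) or without KO replicate 2 (change -1.21, limma adjusted p = 0.213), and when dim probes were not filtered (limma adjusted p = 0.233).

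The other 4 Kupffer cell identity genes did not pass the test, and their WT and KO values overlapped. *Clec4f*, a C-type lectin made in mouse almost exclusively by Kupffer cells, had log2 signals of 4.14, 4.43, 4.35 and 4.75 in WT and 3.92, 4.48, 4.57 and 4.35 in KO, a change of -0.091 (95% interval -0.48 to 0.30, limma adjusted p = 0.863). *Cd5l*, which encodes a secreted scavenger protein of tissue macrophages, had 4.90, 5.23, 5.35 and 5.92 in WT and 4.70, 5.46, 5.47 and 5.48 in KO, a change of -0.072 (95% interval -0.64 to 0.50, limma adjusted p = 0.929). For each of these genes KO replicate 1 was the lowest of the 8 livers and WT replicate 4 the highest. *Vsig4*, the complement receptor that captures C3b-coated particles, had 0.53, 1.23, 0.93 and 1.58 in WT and 0.59, 1.24, 1.38 and 1.21 in KO, a change of 0.038 (95% interval -0.53 to 0.60, limma adjusted p = 0.965). *Timd4*, a phosphatidylserine receptor for apoptotic cells that marks long-lived resident Kupffer cells, had -1.21, -0.91, -0.80 and -0.29 in WT and -1.26, -0.54, -0.41 and -0.51 in KO, a change of 0.12 (95% interval -0.42 to 0.67, limma adjusted p = 0.865). In these genes the livers numbered 1 were the low ones in both genotypes. With 4 livers of each genotype, the intervals of these 4 genes leave changes between -0.64 and 0.67.

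To describe *Marco* beside the rest of its group, the mean deviation of *Clec4f*, *Cd5l*, *Vsig4* and *Timd4* from their WT means was subtracted from that of *Marco* in each liver. The result lay between -0.30 and 0.56 in the WT livers and between -1.41 and -1.01 in the KO livers. It is given without a test because the comparison was chosen after the values were seen.

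**Figure D2:**
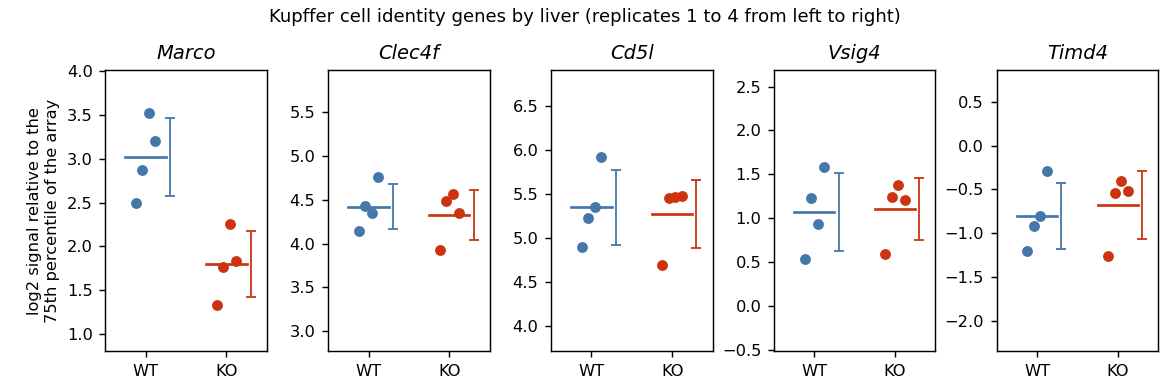
Log2 signal, on the scale of the text, of the 5 Kupffer cell identity genes in 4 WT (blue) and 4 KO (red) livers, replicates 1 to 4 from left to right in each genotype; lines are means and bars are SD, and every panel spans the same number of log2 units. *Marco* is separated by genotype (2.49 to 3.52 in WT, 1.33 to 2.25 in KO), while the other 4 genes overlap and are low in replicate 1 of each genotype.

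The 250 bases before the start of *Marco* and *Vsig4* are shown because one gene was called lower and the other, of the same group, had a change near zero. Sequences are from the RefSeq promoter table, build GRCm38.p6, written 5′ to 3′ on the strand of the gene, with capitals for GAGGAA, the core of the purine box that PU.1, the macrophage factor encoded by *Spi1*, is known to bind. The *Marco* sequence is chr1:120505025-120505274 (minus strand), with the motif starting 146 bases before the gene start, and that of *Vsig4* is chrX:96293439-96293688 (minus strand), with motifs starting 155 and 53 bases before it.
Marco: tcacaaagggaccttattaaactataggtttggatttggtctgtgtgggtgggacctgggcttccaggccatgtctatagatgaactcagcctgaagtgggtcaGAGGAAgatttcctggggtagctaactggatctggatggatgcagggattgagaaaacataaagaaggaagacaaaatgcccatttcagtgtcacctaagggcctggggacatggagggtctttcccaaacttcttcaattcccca
Vsig4: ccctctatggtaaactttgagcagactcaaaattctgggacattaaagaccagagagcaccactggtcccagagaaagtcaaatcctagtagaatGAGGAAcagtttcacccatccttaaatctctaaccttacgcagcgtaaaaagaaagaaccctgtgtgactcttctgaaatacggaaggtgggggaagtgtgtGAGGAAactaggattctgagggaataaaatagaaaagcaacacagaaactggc
Searched on either strand, GAGGAA was in 23.3% of all 32851 promoters of the table over the same 250 bases, and in 14 of the 27 markers that the table holds. The percentage counts every promoter entry, while each marker was counted by its first entry alone, so the units differ. The table holds no promoter for the other 11 markers. The motif was present both in the gene that was called and in genes that were not. A match to 6 letters describes the sequence and not a bound site.

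Of 9 macrophage and monocyte genes, 8 were tested and 0 were called (7 below and 1 above zero, median -0.17; limma). *Adgre1*, *Csf1r*, *Cd68*, *Cd14* and *Lyz2* are expressed by macrophages of many tissues. *Adgre1*, which encodes F4/80, had log2 signals of 1.93, 2.27, 2.25 and 2.26 in WT and 1.52, 2.19, 2.29 and 2.00 in KO, a change of -0.17 (limma adjusted p = 0.717). *Csf1r*, the receptor for the macrophage growth factor CSF1, had 4.92, 5.28, 5.32 and 5.34 in WT and 4.74, 5.28, 5.46 and 5.19 in KO, a change of -0.046 (limma adjusted p = 0.931). In both genes replicate 1 was the lowest liver of its genotype, and the other livers lay close together. *Cd68*, a lysosomal membrane glycoprotein of macrophages, differed by -0.13, *Cd14*, the co-receptor for lipopolysaccharide, by -0.27, and *Lyz2*, lysozyme of myeloid cells, by -0.17, with limma adjusted p-values of 0.837, 0.690 and 0.853. Second probes of *Csf1r*, *Cd68* and *Cd14* gave changes of 0.014, -0.22 and -0.41, with 0 called.

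Products of the integrin and chemokine receptor genes are found on monocytes, dendritic cells and subsets of macrophages. *Cx3cr1*, the receptor for fractalkine, had log2 signals of -2.03, -0.93, -1.90 and -1.39 in WT and -2.21, -2.01, -2.72 and -2.71 in KO. Only KO replicate 2 reached into the WT range, and by a small margin over WT replicate 1. The change was -0.85 (standard error 0.27, 95% interval -1.47 to -0.24, limma adjusted p = 0.234, exact permutation p = 0.0571). Scaling each array by its median in place of the 75th percentile put *Cx3cr1* past the threshold (change -0.89, limma adjusted p = 0.192), while normexp background correction brought the change to -0.41, under 1.5-fold (limma adjusted p = 0.242), and without a filter on dim probes the limma adjusted p was 0.482. *Itgax*, the CD11c chain, had -2.66, -1.52, -1.47 and -2.64 in WT and -2.74, -2.38, -3.04 and -2.48 in KO, a change of -0.59 (limma adjusted p = 0.480). WT replicates 2 and 3 were high for *Itgax*, and the other WT livers lay within the KO range.

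*Ccr2*, the receptor that brings monocytes out of bone marrow, was well above background on 2 of 4 WT arrays and 0 of 4 KO arrays and was not tested. It had log2 signals of -4.21, -3.09, -3.32 and -4.51 in WT and -4.21, -4.27, -4.79 and -4.60 in KO. WT replicates 1 and 4 lay within the KO range, so no change is given. *Itgam*, the CD11b chain, was read from a probe with log2 signals of 3.78, 3.28, 2.95 and 2.76 in WT and 3.63, 3.02, 3.20 and 3.19 in KO, a change of 0.073 (limma adjusted p = 0.919). Unlike the other macrophage genes, this probe was highest in replicate 1 of each genotype. The second *Itgam* probe, for another transcript, gave a change of 0.19 and was lowest in WT replicate 1, so the probes of *Itgam* did not rank the livers alike.

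**Figure D3:**
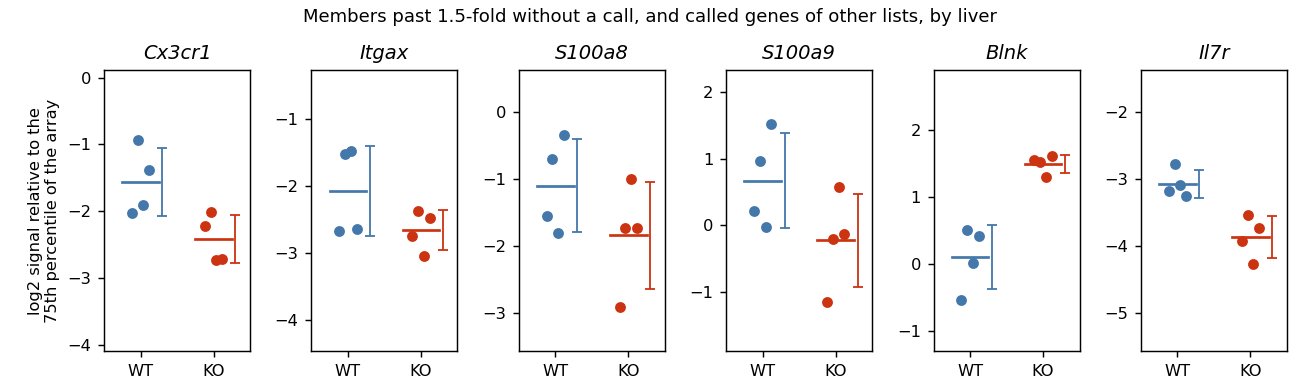
Log2 signal, on the scale of the text, in 4 WT (blue) and 4 KO (red) livers, replicates 1 to 4 from left to right, with means (lines) and SD (bars), for the 4 markers that were over 1.5-fold lower without a call and for *Blnk* and *Il7r*, called in the lists beside the markers. *Cx3cr1*, *Itgax*, *S100a8* and *S100a9* overlap between genotypes, while *Blnk* (higher) and *Il7r* (lower) do not. *Il7r* is near background, well above it on 2 of 4 KO arrays.

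C1QA, C1QB and C1QC are the chains of C1q, the recognition part of the first complement component, which tissue macrophages make. The 3 genes were tested, 0 were called, and their changes were -0.066, -0.17 and -0.18 (limma adjusted p = 0.928, 0.806 and 0.708). *C1qb* had log2 signals of 1.72, 2.50, 2.26 and 2.71 in WT and 1.62, 2.27, 2.38 and 2.22 in KO, and *C1qc* had 3.42, 3.79, 3.73 and 4.05 in WT and 3.18, 3.75, 3.75 and 3.61 in KO. *C1qa* had 2.12, 2.82, 2.59 and 2.96 in WT and 2.02, 2.71, 2.83 and 2.67 in KO. All 3 were lowest in KO replicate 1, next lowest in WT replicate 1 and highest in WT replicate 4, and the genotypes overlapped.

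Promoter sequence of *C1qb* and *C1qc*, neighbors on chromosome 4 that ranked the extreme livers alike, is shown with the same motif in capitals. The *C1qb* sequence is chr4:136886201-136886450 (minus strand), with GAGGAA starting 30 bases before the gene start, and the *C1qc* sequence is chr4:136892915-136893164 (minus strand), with the motif on the opposite strand, and so printed as TTCCTC, starting 193 bases before it.
C1qb: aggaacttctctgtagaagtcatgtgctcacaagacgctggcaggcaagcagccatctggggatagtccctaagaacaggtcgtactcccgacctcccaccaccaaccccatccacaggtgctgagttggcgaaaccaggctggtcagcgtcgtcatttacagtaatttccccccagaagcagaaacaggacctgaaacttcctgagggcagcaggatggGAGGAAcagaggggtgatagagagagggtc
C1qc: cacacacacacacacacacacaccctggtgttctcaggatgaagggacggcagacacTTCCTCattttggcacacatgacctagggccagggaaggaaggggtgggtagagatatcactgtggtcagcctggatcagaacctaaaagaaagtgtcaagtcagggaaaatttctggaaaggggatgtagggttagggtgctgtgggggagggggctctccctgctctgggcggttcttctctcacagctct
These sequences show where the letters lie and were not tested against the array values.

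Of the 6 pan-leukocyte and myeloid signaling genes 5 were tested, with changes between -0.22 and -0.12, and 0 were called (median -0.15; limma). *Ptprc*, which encodes CD45 of all leukocytes, had log2 signals of 0.29, 0.62, 0.87 and 0.72 in WT and 0.10, 0.38, 0.67 and 0.50 in KO, a change of -0.22 (95% interval -0.58 to 0.14, limma adjusted p = 0.600). A dimmer *Ptprc* probe had -2.91, -2.79, -2.62 and -2.86 in WT and -3.42, -3.15, -3.26 and -3.35 in KO. The dimmer probe had no overlap between genotypes, with a change of -0.50 (standard error 0.092, limma adjusted p = 0.0738) that was under 1.5-fold, so the probes of *Ptprc* gave changes of different size in the same direction. *Laptm5*, a lysosomal protein of hematopoietic cells, differed by -0.15, *Tyrobp* and *Fcer1g*, adaptors that carry the signals of activating and Fc receptors, by -0.12 and -0.16, and *Ctss*, the protease cathepsin S, by -0.13, with limma adjusted p-values from 0.594 to 0.851. *Spi1* was well above background on 1 of 4 WT arrays and 0 of 4 KO arrays and was not tested.

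MHC class II molecules present peptides to CD4 T cells and are carried by dendritic cells, B cells and part of the liver macrophages. Of these 4 genes 0 were called, and the changes of all 4 were below zero, between -0.35 and -0.24 (median -0.27; limma adjusted p from 0.528 to 0.700). *Cd74*, the invariant chain, had log2 signals of 3.91, 3.82, 4.20 and 3.55 in WT and 3.15, 3.75, 3.61 and 3.80 in KO. *H2-Eb1* had 4.29, 4.20, 4.67 and 3.88 in WT and 3.48, 4.10, 3.80 and 4.27 in KO. *H2-Aa* had 1.12, 1.31, 1.57 and 0.81 in WT and 0.38, 1.14, 1.04 and 1.28 in KO. The class II genes were highest in WT replicate 3 and lowest in KO replicate 1, and unlike the Kupffer cell genes they were not low in WT replicate 1. Their lowest WT liver was replicate 4, in which the Kupffer cell genes other than *Marco* were highest. The size of these changes rested on single livers: without KO replicate 1 they were -0.15 for *Cd74*, -0.048 for *H2-Aa*, -0.11 for *H2-Ab1* and -0.21 for *H2-Eb1*, and without WT replicate 3 they lay between -0.21 and -0.11. Without WT replicate 4 they lay between -0.48 and -0.37. *H2-Ab1* had 4 probes with changes between -0.31 and -0.18, and its brightest had 4.79, 4.64, 5.13 and 4.34 in WT and 4.08, 4.60, 4.47 and 4.77 in KO.

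Promoters of *H2-Aa* and *H2-Eb1*, which ranked the extreme livers alike, are shown with capitals for CTGATTGG. These letters are the Y box of class II promoters, known as a site of the factor NF-Y. The *H2-Aa* sequence is chr17:34287824-34288073 (minus strand), with the box starting 51 bases before the gene start, and the *H2-Eb1* sequence is chr17:34305617-34305866 (plus strand), with the box starting 62 bases before it.
H2-Aa: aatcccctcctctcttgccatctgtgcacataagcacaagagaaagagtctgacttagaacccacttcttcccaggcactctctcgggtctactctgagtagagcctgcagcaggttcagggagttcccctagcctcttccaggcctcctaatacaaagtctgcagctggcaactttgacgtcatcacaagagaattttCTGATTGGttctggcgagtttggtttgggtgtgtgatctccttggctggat
H2-Eb1: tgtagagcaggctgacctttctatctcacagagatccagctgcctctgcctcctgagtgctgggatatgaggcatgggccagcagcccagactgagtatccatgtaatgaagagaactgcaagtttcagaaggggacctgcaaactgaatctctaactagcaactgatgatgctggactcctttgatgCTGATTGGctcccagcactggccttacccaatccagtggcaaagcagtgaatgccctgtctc
Searched on either strand and counted as for GAGGAA, CTGATTGG was in 3.83% of all 32851 promoters. It was in 2 of the 27 markers held by the table, the class II genes shown. No marker promoter counted in this way held both motifs.

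Of the lymphocyte markers 0 were called (limma), and some were at the limit of detection. Of the T cell genes, *Cd3e*, a chain of the T cell receptor complex, had log2 signals of 1.78, 1.68, 1.55 and 1.83 in WT and 1.65, 1.58, 1.44 and 1.62 in KO, a change of -0.14 (95% interval -0.34 to 0.055, limma adjusted p = 0.534), and a dimmer *Cd3e* probe gave -0.58 (limma adjusted p = 0.406). The genotypes overlapped at the brighter probe. *Cd3g*, another chain of that complex, was well above background on 3 of 4 arrays in each genotype and *Cd8a*, the co-receptor of cytotoxic T cells, on 0 arrays, and neither was tested. Of the cytotoxic and NK genes 0 of 3 were called (limma): *Gzma*, granzyme A, differed by -0.17, and *Ccl5*, a chemokine stored by T and NK cells, by -0.29. *Nkg7*, a protein of cytotoxic granules, had -1.23, -1.23, -0.87 and -1.18 in WT and -1.98, 0.51, -1.56 and -1.23 in KO. KO replicate 2 was alone far above all other livers for *Nkg7*. The change of *Nkg7* was 0.065 with all arrays (95% interval -1.02 to 1.15 from limma) and -0.46 without that liver. Of the B cell genes, *Cd79b*, a signaling chain of the B cell receptor, and *Ms4a1*, CD20, differed by -0.082 each (limma adjusted p = 0.888 and 0.924), and *Cd79a*, the partner chain, was on 0 arrays well above background.

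S100A8 and S100A9 form calprotectin, abundant in the cytoplasm of neutrophils. *S100a8* had log2 signals of -1.55, -0.70, -1.81 and -0.34 in WT and -2.92, -1.72, -0.99 and -1.72 in KO, a change of -0.74 (95% interval -1.78 to 0.30, limma adjusted p = 0.536). *S100a9* had 0.21, 0.97, -0.025 and 1.52 in WT and -1.14, -0.20, 0.57 and -0.13 in KO, a change of -0.89 (95% interval -1.87 to 0.084, limma adjusted p = 0.418). WT replicates 4 and 2 were the high livers and KO replicate 1 the low one for both genes, and the genotypes overlapped. The means were over 1.5-fold apart with all arrays, but without KO replicate 1 the change was -0.38 for *S100a8*, under 1.5-fold, and -0.59 for *S100a9*, and without WT replicate 4 it was -0.49 and -0.61. With normexp correction the change of *S100a8* was -0.48. The livers of one genotype differed by more: the range within WT was from -1.81 to -0.34 for *S100a8* and from -0.025 to 1.52 for *S100a9*. Of 4 tested genes in a separate list of neutrophil genes 0 were called (median -0.23; limma, 0 at an unadjusted p under 0.05), with *Lcn2*, lipocalin 2, at -0.81 and *Elane*, neutrophil elastase, at 0.053.

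Across the groups, the range within WT and the range within KO were each wider than the difference of the genotype means for 31 of the 33 markers. The exceptions were *Marco* and *Cx3cr1*. The same count was not made over all tested genes, so whether it is particular to the markers is not known. KO replicate 1 was the lowest KO liver for 28 of the 33 markers, WT replicate 1 was the lowest WT liver for 21, and both held for 18 (54.5%), against 13.4% of all tested probes. The mean deviation from the 8-array mean of the 5 Kupffer cell identity genes was -0.32 in WT replicate 1 and -0.63 in KO replicate 1, and 0.54 in WT replicate 4. For the C1q chains these values were -0.40, -0.55 and 0.42. KO replicate 1 was thus low for macrophage, class II, cytotoxic, B cell and neutrophil groups, while WT replicate 1 was low for the macrophage groups and not for class II (0.15). A list of 12 genes of liver sinusoidal endothelial cells spanned 0.19 between its lowest and highest array and a list of 9 hepatocyte genes 0.15, against 1.17 for the Kupffer cell identity genes and 0.56 for a list of 20 other Kupffer cell genes. Lists of 12 stellate cell, 5 red blood cell and 5 cholangiocyte genes spanned 0.61, 0.72 and 0.78. The red blood cell genes were low in KO replicate 1 (-0.43) and not in WT replicate 1 (0.095). Arrays numbered 1 lay in column 1 of the slide in both genotypes, and the part of slide position and of blood content in these differences was not tested. With both arrays numbered 1 left out, a setting chosen after seeing the data, *Marco* had a change of -1.25 (limma adjusted p = 0.146) and was again the only marker called.

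**Figure D4:**
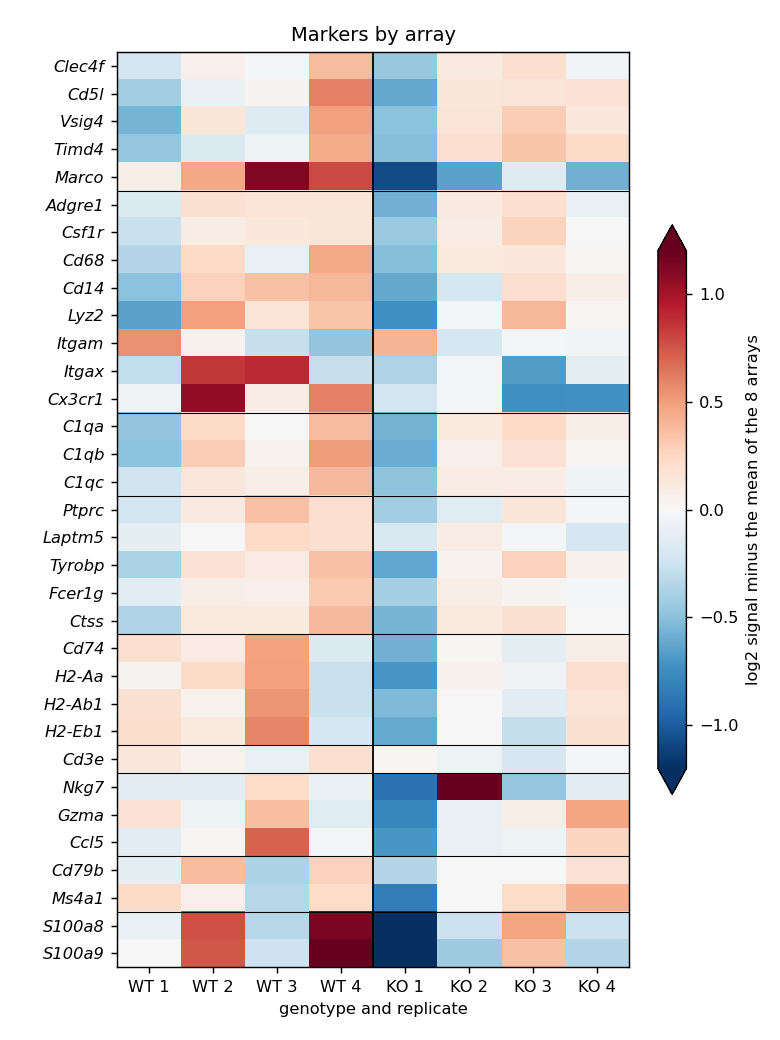
Deviation of each of the 33 tested markers from its mean over the 8 arrays (log2; blue low, red high, colors end at 1.2), by array (columns) and gene (rows, lines between groups). The columns of WT replicate 1 and KO replicate 1 are blue for most macrophage genes, and KO replicate 1 is also blue for class II and neutrophil genes; the *Marco* row changes color with genotype.

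**Figure D5:**
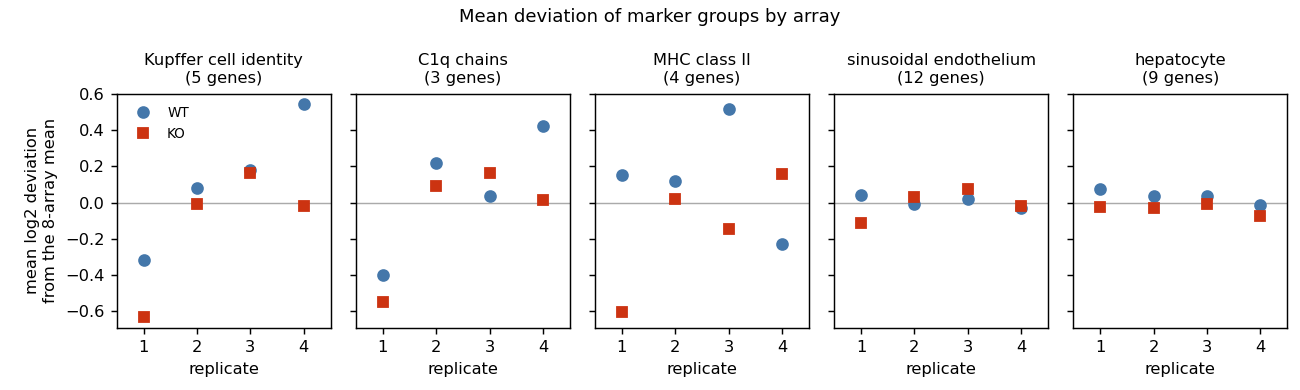
Mean log2 deviation from the 8-array mean for 3 groups of markers and for lists of sinusoidal endothelial and hepatocyte genes, by replicate (x axis) in WT (blue circles) and KO (red squares). Kupffer cell identity genes run from -0.63 in KO replicate 1 to 0.54 in WT replicate 4 and class II genes from -0.60 in KO replicate 1 to 0.52 in WT replicate 3, while the endothelial and hepatocyte lists stay within 0.11 of zero.

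The pathways around these markers were read from further lists of genes that are not among the 38. Of 20 other genes of Kupffer cells, all tested, 0 were called (limma, 13 below and 7 above zero, median -0.045, 2 at an unadjusted p under 0.05). These 2 were *Spic* (-0.43, limma adjusted p = 0.188) and *Id3* (-0.58, limma adjusted p = 0.299), each under 1.5-fold. Their genotypes did not overlap, a trait of 2 of the 20 genes against 9.72% of all genes. The list ran from *C6*, a complement component, at -0.74 to *Cd209f*, a C-type lectin, at 0.49. Of 18 receptor signaling partners and ligands, 0 were called (median -0.11; limma, 3 at an unadjusted p under 0.05), from *Trem2*, a lipid-binding receptor that signals through TYROBP, at -0.78 to *Csf2rb*, the common beta chain of cytokine receptors, at 0.41. *Csf2rb* had log2 signals of 1.14, 0.85, 1.00 and 1.17 in WT and 1.58, 1.38, 1.45 and 1.39 in KO. Its genotypes did not overlap, and the change (limma adjusted p = 0.118) was under 1.5-fold. Of 8 tested class II pathway genes 0 were called (limma, median -0.091, 1 at an unadjusted p under 0.05). They ran from *H2-Oa*, a chain of the peptide-loading modulator H2-O, at -0.45 to *Rfxank*, a subunit of the RFX complex that binds class II promoters, at 0.22. *H2-Oa* was the 1 gene under that p. It was dim, well above background on 4 of 4 WT and 3 of 4 KO arrays, and passed the filter only through WT. Of 12 monocyte and dendritic cell genes 9 were tested and 0 were called (limma, median -0.0075, 2 at an unadjusted p under 0.05). They ran from *Chil3*, a chitinase-like secreted protein, at -0.81 to *Ly6c2*, a monocyte surface protein, at 0.35. *Chil3*, 1 of the 2 genes under that p, was well above background on 4 of 4 WT and 2 of 4 KO arrays. It passed the filter only through WT, and its KO values were near background. *Xcr1*, *Flt3* and *Cd209a* of this list failed the filter. *Fn1*, *Siglech* and *Ms4a4c* were tested, with log2 signals between 7.12 and 8.88 on all arrays. Which cells gave these signals was not tested.

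The lymphocyte lists held the other 2 calls. *Blnk*, the B cell linker, an adaptor below the B cell receptor, had log2 signals of -0.54, 0.51, 0.018 and 0.42 in WT and 1.55, 1.52, 1.31 and 1.61 in KO. All KO livers were above all WT livers (exact permutation p = 0.0286), with a change of 1.40 (standard error 0.22, limma adjusted p = 0.0448). It was the 1 gene called higher among 7 tested B and plasma cell genes (median 0.024, 3 at an unadjusted p under 0.05), which ran down to *Cd22*, an inhibitory receptor of B cells, at -0.26. *Il7r*, the interleukin 7 receptor of lymphocytes, had -3.17, -2.78, -3.09 and -3.26 in WT and -3.93, -3.53, -4.27 and -3.74 in KO. The genotypes did not overlap (exact permutation p = 0.0286), with a change of -0.79 (standard error 0.17, limma adjusted p = 0.106). But *Il7r* was near background, well above it on 4 of 4 WT and 2 of 4 KO arrays. It passed the filter only through WT, where it was higher, so the lack of overlap and these p-values do not stand apart from the filter. With normexp background correction its change was -0.27 and the call was lost. The call was also lost without WT replicate 2 (limma adjusted p = 0.210), WT replicate 3 (0.239) or KO replicate 1 (0.205), and without the filter on dim probes (0.254). It was the 1 gene called lower among 13 tested T and NK cell genes (12 below zero, median -0.31, 4 at an unadjusted p under 0.05). Of the 13, 10 were well above background on every array. The rest, *Il7r*, *Gzmb* and *Tbx21*, passed the filter only through WT. Their changes below zero therefore do not stand apart from the filter. The highest change, 0.24, was that of *Cd4*, the co-receptor of helper T cells. *Cd4* was at 4.46 to 4.98, and *Cd3d*, a chain of the T cell receptor complex, at -1.71 to -0.97. Which cells gave the *Cd4* signal was not tested. In this list *Cd247*, the zeta chain of the T cell receptor complex, also had no overlap between genotypes, with a change of -0.27 (limma adjusted p = 0.188) that was under 1.5-fold. It is named after its values were seen. Over all 132 tested genes of the lists, *Blnk* and *Il7r* were the genes called, the former in the direction with 1.01% of all genes and the latter in that with 0.754%. The genotypes did not overlap for 9 of the 132, against 9.72% of all genes. Of the 132, 125 were well above background on every array, and the rest passed the filter only through WT.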

How the data were processed

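Total RNA of frozen livers was labeled with Cy3 and hybridized to Agilent arrays. The authors deposited the spot intensity of each array on a linear scale, as written by Feature Extraction 10.7.1.1, and a table of log2 values, which equals, within 0.0085 at the median, the log2 of the processed intensity minus the 75th percentile of the array. Here control and outlier spots were left out, the spots of a probe were averaged on that scale, and 29069 of 56605 probes were kept, those that in WT or in KO stood well above background on each of the 4 arrays. They were compared in R 4.3.3 with limma 3.58.1, by a two-sided test with Benjamini-Hochberg adjustment. The thresholds come from the legend of the study, where adjustment of p is left unsaid. Single genes were also compared by an exact permutation test over all 70 assignments. The fit was tested on simulated data. Array design and RefSeq names come from different builds, so only promoter sequences carry coordinates.

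The members and the lists (13 lists written by hand) were chosen with earlier results of these data known. Named were all 38 members, called genes of the other lists, each list's largest and smallest change, and *Agpat3*. Values of *Csf2rb*, *Spic*, *Id3*, *Cd3d*, *Csf3r*, *Fn1*, *Siglech* and *Ms4a4c*, and second probes, were added after they were seen. So were the names of list genes that failed the filter or passed it only through WT. Alternatives were the deposited log2 values, normexp correction, quantile and median scaling, other filters, thresholds and eBayes options, a replicate block, the mean of a gene's probes, and arrays left out. Normexp (offset 50) was run on the median spot signal, since no mean signal is used here. Arrays have no sequencing depth, so their number and, for dim probes, the signal over background limit the precision.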

Additional observations from a re-analysis of the deposited data

Results flagged for a closer look

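Within a genotype, 6 of 66 sets of 4 values held 1 liver far from the other 3 by Dixon's criterion, which chance meets in about 1 of 20 sets. *Cd5l* was 4.70 in KO replicate 1, against 5.46 to 5.48 in the other KO livers. *Timd4* was -1.26 in the same liver, against -0.54 to -0.41. In WT replicate 1, *Adgre1* was 1.93, against 2.25 to 2.27 in the other WT livers. In that liver *Csf1r* was 4.92, against 5.28 to 5.34, and *Cd14* was -1.07, against -0.30 to -0.18. *Nkg7* was -0.87 in WT replicate 3, against -1.23 to -1.18. The 5 macrophage genes among these share cells, so they do not count as separate observations.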

How the results depend on the processing

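The count of markers called higher was 0 under every alternative run. The count called lower, 1 with the settings of the report, was 2 (*Marco* and *Cx3cr1*) with median scaling and with the replicate block, 0 without a filter on dim probes and 0 at an adjusted p under 0.05, 5 at an unadjusted p under 0.2 (adding *Itgax*, *S100a8* and *S100a9*), and between 0 and 1 with 1 array left out. The change of *Marco* lay between -1.40 and -1.06 with 1 array left out and between -1.26 and -1.13 under the other alternatives, and *Blnk* was called in each of them. Without both arrays numbered 1, the limma adjusted p of *Il7r* was 0.292. The replicate numbers were not taken as pairs, since the labels name no pairs. The deviations of same-numbered arrays correlated at 0.33, -0.11, 0.10 and 0.32. Those of WT and KO arrays of unlike number correlated at -0.27 to 0.27. Same-numbered arrays also shared a column of the slide, and whether the numbers mark pairs is not known. For *Marco*, *Cd14*, *Cx3cr1*, *Ptprc*, *Fcer1g* and *Cd3e* the KO liver was below the WT liver of the same number at each number. How often this held over all genes was not counted. With the replicate block the limma adjusted p of *Cx3cr1* was 0.169 and that of *Ptprc* 0.218, without a call for *Ptprc*. The change of *Cd79b* turned to 0.0059 with normexp correction, and those of *Gzma* and *Ms4a1* to 0.096 and 0.24 without both arrays numbered 1. With 1 array left out, small changes crossed zero: *Clec4f* (-0.18 to 0.045), *Cd5l* (-0.22 to 0.12), *Vsig4* (-0.14 to 0.21), *Timd4* (-0.010 to 0.32), *Csf1r* (-0.14 to 0.096), *Cd68* (-0.27 to 0.020), *Lyz2* (-0.41 to 0.049), *Itgam* (-0.071 to 0.27), *C1qa* (-0.23 to 0.11), *Tyrobp* (-0.27 to 0.063), *Ctss* (-0.27 to 0.032), *Nkg7* (-0.46 to 0.37), *Gzma* (-0.35 to 0.067), *Cd79b* (-0.22 to 0.026) and *Ms4a1* (-0.24 to 0.18). Over all probes, 273 were called higher and 211 lower, with 180 and 65 under normexp, 122 and 131 without a filter, 82 and 35 at an adjusted p under 0.05, 534 and 451 at an unadjusted p, and 137 and 100 without both arrays numbered 1. No scaling moved the median of all probes by over 0.1. The cause of these shifts was not tested.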

Other observations

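Cells that neighbor the Kupffer cells were read from lists of their own, and 0 genes of these lists were called (limma); at an unadjusted p under 0.05 there were 1 chemokine or cytokine, 1 endothelial, 2 stellate, 1 cholangiocyte, 1 hepatocyte and 2 red blood cell genes. Of 10 tested chemokine and cytokine genes 4 were below zero (median 0.054), from *Tnf*, tumor necrosis factor, at -0.65 (limma adjusted p = 0.314) to *Il1b*, interleukin 1 beta, at 0.29. *Tnf* had log2 signals of 0.78, 0.87, 0.38 and 0.73 in WT and 0.55, 0.28, -0.68 and 0.025 in KO, and the genotypes overlapped. Of 12 sinusoidal endothelial genes 3 were below zero (median 0.012), from *Lyve1*, a hyaluronan receptor, at -0.52 to *Cdh5*, the cadherin of endothelial junctions, at 0.13. Of 12 stellate cell genes 10 were below zero (median -0.076), from *Col1a1*, a collagen chain, at -0.95 to *Lrat*, which stores retinol as esters, at 0.50. *Col1a1* was 1.82 in WT replicate 2, against -0.30 to 0.28 in the other WT livers. Of 5 tested cholangiocyte genes 3 were below zero (median -0.14), from *Sox9*, a transcription factor of bile duct cells, at -0.64 to *Krt19*, a keratin, at 0.17. Of 9 tested hepatocyte genes 7 were below zero (median -0.068), from *Hnf4a*, a transcription factor, at -0.33 to *Apoa1* at 0.13. All 5 tested red blood cell genes were below zero (median -0.17), from *Alas2*, the heme synthesis enzyme of erythroid cells, at -0.40 to *Hbb-bt*, a globin chain, at -0.075.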
